A study of Mus musculus with 42 samples.

Results

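The genes described here were 34 genes of cholesterol synthesis and its control, among 21951 genes with an expression value and 12558 genes with decay values. They were chosen by symbol for their place in the pathway, and all 34 were found in both tables. Of these, 18 encode enzymes of sterol synthesis (Hmgcs1, Mvk, Pmvk, Mvd, Idi1, Fdps, Acat2, Fdft1, Sqle, Lss, Cyp51, Tm7sf2, Msmo1, Nsdhl, Hsd17b7, Ebp, Sc5d and Dhcr7). A further 6 belong to sterol sensing and SREBP control (Srebf1, Srebf2, Scap, Insig1, Insig2 and Stard4), 6 to the liver X receptors (LXR) and cholesterol efflux (Nr1h2, Nr1h3, Abca1, Abcg1, Mylip and Apoe), and 4 to fatty acid synthesis (Scd1, Scd2, Fasn and Acaca).

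Messenger RNA came from bone marrow-derived macrophages (BMDMs) of mice on a C57BL/6 background, 7 to 9 weeks old. WT cells were compared with ΔM cells, which the labels call TTP-/-. In ΔM cells the Zfp36 gene, which encodes the mRNA-destabilizing protein tristetraprolin (TTP), was removed by a Cre recombinase driven from the LysM promoter, so that deletion is limited to the myeloid lineage and need not be complete in every cell. Cells of both genotypes received no LPS or 10 ng/ml LPS for 3 or 6 h, and at 3 and 6 h also actinomycin D at 5 µg/ml, which stops transcription, for 0, 45 or 90 min. The 42 libraries formed 14 groups of 3. The tables give 1 FPKM (fragments per kilobase of transcript, scaled to the mapped total of the library) for each of the 6 groups without actinomycin D, and 1 half-life and 1 decay rate for each genotype and LPS time. No value per library was used, so the spread between replicates, the number of libraries that share a direction and the depth of each library are unknown, and every comparison below is a description without a test. A gene was counted as higher or lower when its FPKM plus 1 differed by at least 1.5-fold and its mean FPKM in both groups was at least 1, which all 34 genes met in every comparison. The share of all genes past the same limit stands beside the first count of each comparison.

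Animal cells make cholesterol from acetyl-CoA through mevalonate, farnesyl diphosphate, squalene and lanosterol. When sterols are scarce, SCAP escorts the transcription factor SREBP2 (Srebf2) from the endoplasmic reticulum to the Golgi, where it is cleaved and freed to switch on the synthesis genes, and INSIG proteins hold the complex back when sterols are plentiful. The liver X receptors, encoded by Nr1h3 (LXRα) and Nr1h2 (LXRβ), work in the opposite situation: activated by oxysterols, they switch on genes that move cholesterol out of the cell. In macrophages, which take up lipoproteins and dying cells, the balance of both programmes sets the sterol content of the cell and is tied to inflammatory signalling.

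The promoters of the synthesis genes are shown because these genes stood together in the genotype comparison below. RefSeq windows on GRCm38.p6, the build that corresponds to the mm10 used by the authors, reach from 250 bases before to 50 bases after a transcription start and matched 27 of the 34 genes. Among these, 15 are synthesis enzymes, 5 SREBP control genes, 5 LXR and efflux genes and 2 fatty acid synthesis genes. The part before the start is printed 5′ to 3′ for Hmgcs1 on the plus strand (chr13:119690101-119690350), Mvd on the minus strand (chr8:122443423-122443672), Lss on the plus strand (chr10:76531355-76531604), Cyp51 on the minus strand (chr5:4104698-4104947) and Nr1h3 on the minus strand (chr2:91195117-91195366, 1 of its 2 start sites). Capitals mark CCAAT or its complement ATTGG, the letters bound by the factor NF-Y, and, in Hmgcs1, the SREBP site TCACCCCAC.
Hmgcs1: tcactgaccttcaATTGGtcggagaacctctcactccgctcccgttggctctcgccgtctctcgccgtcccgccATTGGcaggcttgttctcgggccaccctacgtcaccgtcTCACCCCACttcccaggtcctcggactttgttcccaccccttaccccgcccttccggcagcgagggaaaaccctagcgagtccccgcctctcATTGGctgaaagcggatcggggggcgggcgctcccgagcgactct
Mvd: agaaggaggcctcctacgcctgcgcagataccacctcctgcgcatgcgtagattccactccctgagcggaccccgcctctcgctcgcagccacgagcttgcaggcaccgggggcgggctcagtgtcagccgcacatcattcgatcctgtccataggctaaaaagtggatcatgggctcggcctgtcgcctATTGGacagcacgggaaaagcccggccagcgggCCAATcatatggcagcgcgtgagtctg
Lss: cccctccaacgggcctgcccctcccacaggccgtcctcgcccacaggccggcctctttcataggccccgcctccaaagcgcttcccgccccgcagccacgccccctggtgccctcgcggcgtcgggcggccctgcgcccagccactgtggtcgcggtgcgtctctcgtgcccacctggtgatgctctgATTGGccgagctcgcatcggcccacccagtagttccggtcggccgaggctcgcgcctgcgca
Cyp51: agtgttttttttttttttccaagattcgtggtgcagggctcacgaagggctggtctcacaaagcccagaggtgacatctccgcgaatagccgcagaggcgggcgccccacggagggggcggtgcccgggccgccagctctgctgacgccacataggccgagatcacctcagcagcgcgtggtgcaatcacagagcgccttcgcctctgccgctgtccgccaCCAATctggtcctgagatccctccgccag
Nr1h3: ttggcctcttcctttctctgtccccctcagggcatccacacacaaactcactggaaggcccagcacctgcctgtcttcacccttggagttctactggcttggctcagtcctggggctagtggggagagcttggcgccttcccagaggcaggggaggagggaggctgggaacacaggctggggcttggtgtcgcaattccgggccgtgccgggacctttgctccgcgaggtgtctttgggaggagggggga

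The letters CCAAT, read on both strands, stood in a window of 14 of the 15 synthesis enzymes, with Acat2 the exception, and 9 of them held at least 2 copies. By comparison 41.1% of all 27025 genes with a window held them, with no limit on expression, as for the other motifs below. A gene can have several windows, and window by window the shares were 55.3% of 38 windows of the 27 genes and 37.4% of all 32851. They were present in 4 of 5 SREBP control genes and in 1 of 5 LXR and efflux genes, Mylip. Hmgcs1 held 3 copies in the stretch printed above and Mvk 5. The SREBP motif TCACNCCAC was found in Hmgcs1 alone of the 27 genes and in 1.44% of all genes. The E-box CACGTG stood in 6 of the 27 genes, Hsd17b7, Sc5d, Dhcr7, Insig1, Scap and Abca1, against 8.09% of all genes. The letters GGTCA, 4 bases of any kind and GGTCA were found in none of the 27 and in 0.0518% of all genes. Their spacing is closer than that of the LXR motif DR4, so DR4 itself was not searched. All of these are matches of letters in a short window and do not show binding.

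Zfp36 itself was checked first. Its FPKM was 117.65, 1016.56 and 1781.57 in WT cells at 0, 3 and 6 h of LPS and 5.98, 16.33 and 30.98 in ΔM cells, lower in ΔM at each time. The 8 macrophage markers (Adgre1, Cd68, Csf1r, Itgam, Lyz2, Cd14, Mertk and Fcgr1) summed to 6968 to 12548 FPKM in the WT groups and 5467 to 10128 FPKM in the ΔM groups. Among them Lyz2 was lower in ΔM cells past 1.5-fold at each time, with log2 ratios of -0.77, -0.64 and -0.79. It stood at 6936.37, 4840.59 and 3540.85 FPKM in WT and 4067.39, 3098.33 and 2043.47 in ΔM cells, so the marker sums lean on it. Mertk was higher in ΔM cells at 0 and 3 h with 0.60 and 0.96, and Fcgr1 was higher at 0 h with 0.88. The part of these marker differences in the results below was not tested. The marker lists of T cells, B cells, neutrophils, dendritic cells, and fibroblasts and epithelium summed to at most 3.39 FPKM in any group. Of these markers, Cd79b stood at 2.63 FPKM in WT and 1.76 in ΔM cells at 0 h, Ngp at 1.97 and 1.84, and Col1a1 at 1.74 and 1.63. Cd4 stood at 0.65 and 1.31 and Ly6g at 0.32 and 1.15, while Cd3e, Ms4a1, Flt3 and Epcam were at or below 0.05 in every group. In each group, 10243 to 11490 genes had an FPKM of at least 1.

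Without LPS and after it, ΔM cells held less mRNA for sterol and fatty acid synthesis and more for LXRα, Abcg1 and Apoe than WT cells. The 18 synthesis enzymes summed to 677.85, 441.82 and 389.78 FPKM in WT cells at 0, 3 and 6 h and to 527.23, 296.3 and 255.68 in ΔM cells. The ΔM sum was thus 0.778, 0.671 and 0.656 times that of WT. The 6 LXR and efflux genes summed to 360.22, 298.73 and 263.68 FPKM in WT cells and to 532.09, 385.73 and 374.27 in ΔM cells, a ratio of 1.48, 1.29 and 1.42. Both sums lean on abundant members. Msmo1 and Ebp made up 25.99% and 15.7% of the enzyme sum in untreated WT cells, and Apoe 63.2% of the LXR and efflux sum. Without Msmo1 and Ebp the enzyme sum was 395.34 in WT and 281.08 in ΔM cells at 0 h, 263.9 and 164.53 at 3 h, and 231.87 and 139.46 at 6 h. Without Apoe the LXR and efflux sum was 132.44 and 171.39 at 0 h, 109.43 and 117.83 at 3 h, and 131.44 and 161.49 at 6 h. Each sum kept its direction between genotypes without these genes. In bulk RNA, fewer cells that express a gene and less of its mRNA per cell cannot be told apart.

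**Figure D1:**
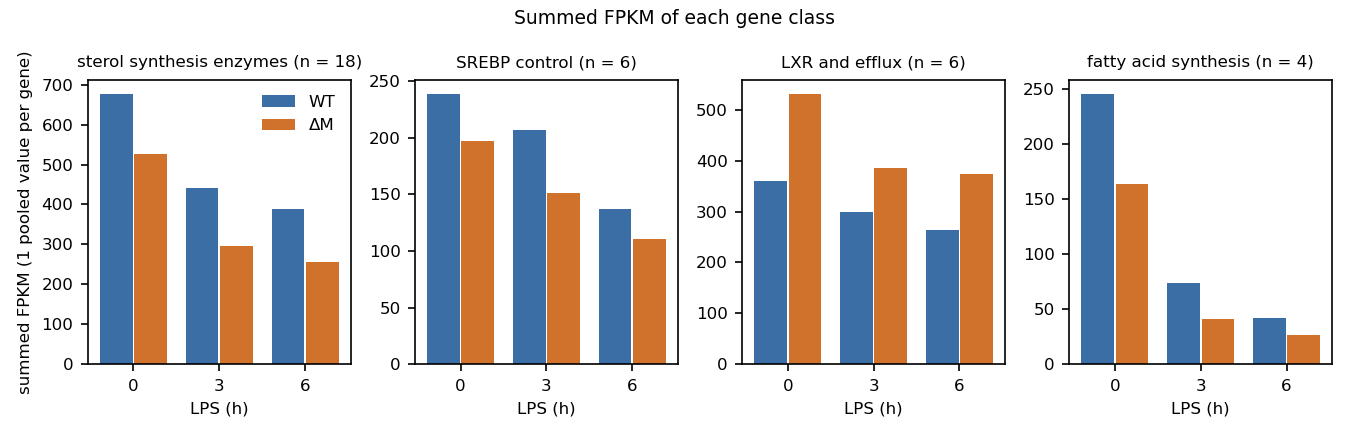
Summed FPKM (vertical axis) of the 4 gene classes by hours of LPS (horizontal axis) in WT (blue) and ΔM (orange) cells, 1 pooled value per gene and group and therefore no error bars. The bars of ΔM are lower than those of WT in 3 classes at each time and higher for the LXR and efflux genes, with 532.09 against 360.22 at 0 h.

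Of the 34 genes, 6 were at least 1.5-fold lower and 3 at least 1.5-fold higher in ΔM than in WT cells at 0 h, where 5.06% and 3.16% of all 11459 genes were. At 3 h these counts were 14 and 2, against 4.53% and 3.34% of 10770 genes, and at 6 h 11 and 2, against 3.19% and 1.79% of 10307 genes. All genes together had a median log2 ratio of -0.05, -0.02 and -0.03. The medians of the 18 enzymes were -0.43, -0.59 and -0.56, and 17 of them were below 0 at all 3 times. Mvk, with 0.07 at 0 h, was the other. The LXR and efflux genes had medians of 0.53, 0.49 and 0.32, the SREBP control genes of -0.20, -0.37 and -0.27, and the fatty acid synthesis genes of -0.52, -0.69 and -0.44. When all genes were ranked by their ratio, 11, 14 and 18 of the 18 enzymes lay in the lowest 10% at 0, 3 and 6 h and 0 in the highest 10%. No gene passed the limit in both directions. The 3 comparisons use different libraries, but each time point has only 1 pooled value per genotype.

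At 3 h the genotype ratio also followed the GC content of the transcripts. Over 9500 genes the Spearman correlation of ratio and GC content was -0.42 at 3 h, against 0.04 at 0 h and -0.01 at 6 h. The enzymes have a median GC content of 50.1% and the LXR and efflux genes of 55.3%, against 50.8% for all genes. With the ratios centred within bins of GC content, 9 of the 33 members that have a GC value were lower in ΔM at 3 h and 3 higher, against 3.34% and 3.02% of all 9500 genes, and the median of the enzymes was -0.56 and that of the LXR and efflux genes 0.58.

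**Figure D2:**
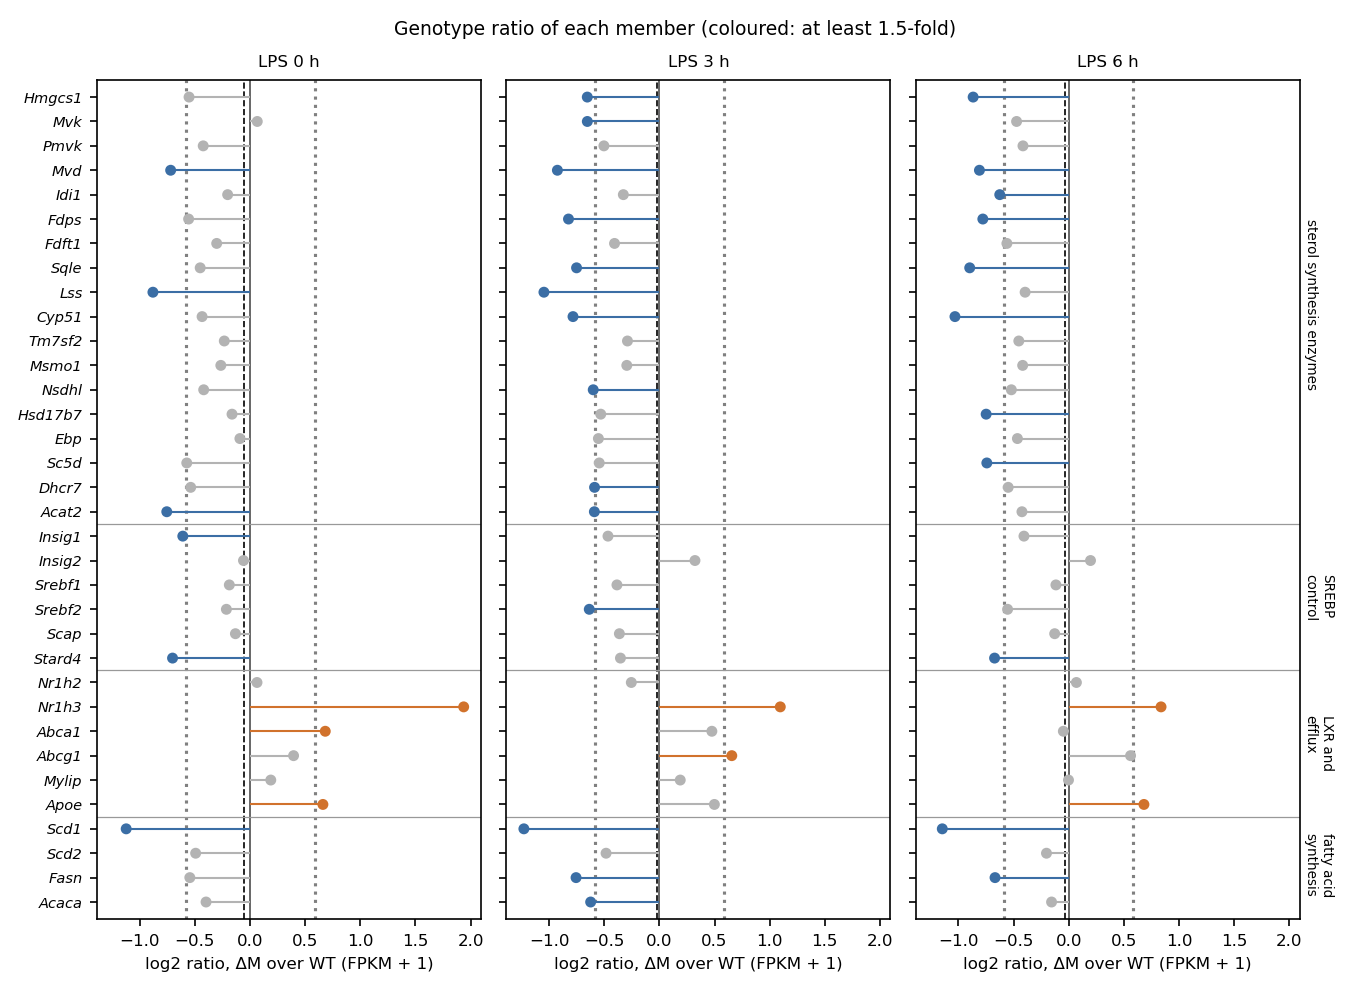
Log2 ratio of FPKM plus 1, ΔM over WT (horizontal axis), of each of the 34 genes at 0, 3 and 6 h of LPS, grouped by class. Dotted lines mark 1.5-fold, the dashed line the median of all genes, and colour a gene past the limit (blue lower, orange higher in ΔM). The enzymes lie left of 0 apart from Mvk at 0 h, and Nr1h3 lies farthest right in all 3 panels.

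The early steps of the pathway lead from acetyl-CoA to farnesyl diphosphate. Hmgcs1 makes HMG-CoA, the precursor of mevalonate. Its FPKM in WT cells was 19.63, 20.43 and 24.77 at 0, 3 and 6 h and in ΔM cells 13.06, 12.62 and 13.13. The ΔM values were nearly level while the WT values were highest at 6 h, so that the log2 ratio was -0.55, -0.65 and -0.87. Mvd, which decarboxylates mevalonate diphosphate, stood at 11.09, 4.81 and 3.33 FPKM in WT and 6.34, 2.06 and 1.47 in ΔM cells. With ratios of -0.72, -0.93 and -0.81 it was the only enzyme past 1.5-fold at all 3 times. Fdps, which joins the isoprene units to farnesyl diphosphate, stood at 43.8, 35.92 and 30.78 FPKM in WT and 29.45, 19.85 and 17.52 in ΔM cells, with ratios of -0.56, -0.82 and -0.78. Mvk, mevalonate kinase, differed in its course: 13.64, 13.11 and 10.7 FPKM in WT cells and 14.32, 7.97 and 7.43 in ΔM cells, with ratios of 0.07, -0.65 and -0.47. Idi1, the isomerase of the isoprene units, was the least abundant member at 1.1 to 2.24 FPKM and passed the limit at 6 h with -0.63. Acat2, a cytosolic thiolase that makes acetoacetyl-CoA, had ratios of -0.76, -0.59 and -0.42. Pmvk, phosphomevalonate kinase, stayed within the limit at -0.42, -0.50 and -0.42.

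The squalene steps commit carbon to sterols. Sqle, squalene epoxidase, a rate-limiting enzyme, stood at 42.49, 19.72 and 11.43 FPKM in WT and 30.79, 11.31 and 5.67 in ΔM cells. The ΔM value was the lower at each time, and the ratio went from -0.45 at 0 h to -0.75 at 3 h and -0.90 at 6 h. Lss, which closes the rings of lanosterol, stood at 21.54, 11.13 and 10.3 FPKM in WT and 11.24, 4.87 and 7.59 in ΔM cells. Its ratios of -0.88 and -1.05 at 0 and 3 h were the lowest of the 18 enzymes, and at 6 h its ratio was -0.40, the highest of the 18. Fdft1, squalene synthase, had ratios of -0.30, -0.41 and -0.56, within the limit.

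The 8 enzymes that turn lanosterol into cholesterol showed the same order of genotypes. Cyp51, lanosterol demethylase, stood at 22.78, 22.34 and 21.02 FPKM in WT and 16.59, 12.56 and 9.77 in ΔM cells. It was almost level in WT cells, and its ratio of -0.43, -0.78 and -1.03 was the lowest of the enzymes at 6 h. Sc5d, a desaturase of a late step, likewise kept its level in WT cells with 28.86, 26.48 and 29.59 FPKM, against 19.06, 17.83 and 17.28 in ΔM cells. Hsd17b7, a ketoreductase, had ratios of -0.16, -0.53 and -0.75. Nsdhl, which removes a carboxyl group at the C4 position, had ratios of -0.42, -0.60 and -0.52. Dhcr7, which catalyses the last step to cholesterol, stood at 79.28, 25.77 and 11.35 FPKM in WT and 54.28, 16.81 and 7.44 in ΔM cells, with ratios of -0.54, -0.59 and -0.55. The 2 enzymes most abundant on average over the groups, the C4 methyl oxidase Msmo1 and the isomerase Ebp, stayed within 1.5-fold. Msmo1 stood at 176.15, 82.67 and 97.95 FPKM in WT and 146.42, 67.17 and 73.07 in ΔM cells. Ebp stood at 106.36, 95.25 and 59.96 in WT and 99.73, 64.6 and 43.15 in ΔM cells. The reductase Tm7sf2 was within the limit too, with -0.23, -0.29 and -0.45.

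Among the genes of SREBP control, Srebf2, which encodes SREBP2, stood at 70.14, 82.24 and 55.72 FPKM in WT and 60.31, 52.57 and 37.62 in ΔM cells. It passed the limit at 3 h with a ratio of -0.64 and stood at -0.21 and -0.55 at 0 and 6 h. Srebf1, whose product drives fatty acid genes, was within the limit at -0.19, -0.38 and -0.12. Insig1, which retains SCAP and is itself a target of SREBP, stood at 36.71, 29.49 and 19.42 FPKM in WT and 23.71, 21.07 and 14.41 in ΔM cells, with ratios of -0.61, -0.47 and -0.41. Insig2, the related retention protein, was the only SREBP control gene above WT, with 0.32 at 3 h and 0.20 at 6 h, both within the limit. Stard4, a cytosolic sterol carrier, stood at 13.08, 5.08 and 2.65 FPKM in WT and 7.65, 3.76 and 1.29 in ΔM cells, with ratios of -0.70, -0.35 and -0.67. Scap had ratios of -0.13, -0.36 and -0.13.

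**Figure D3:**
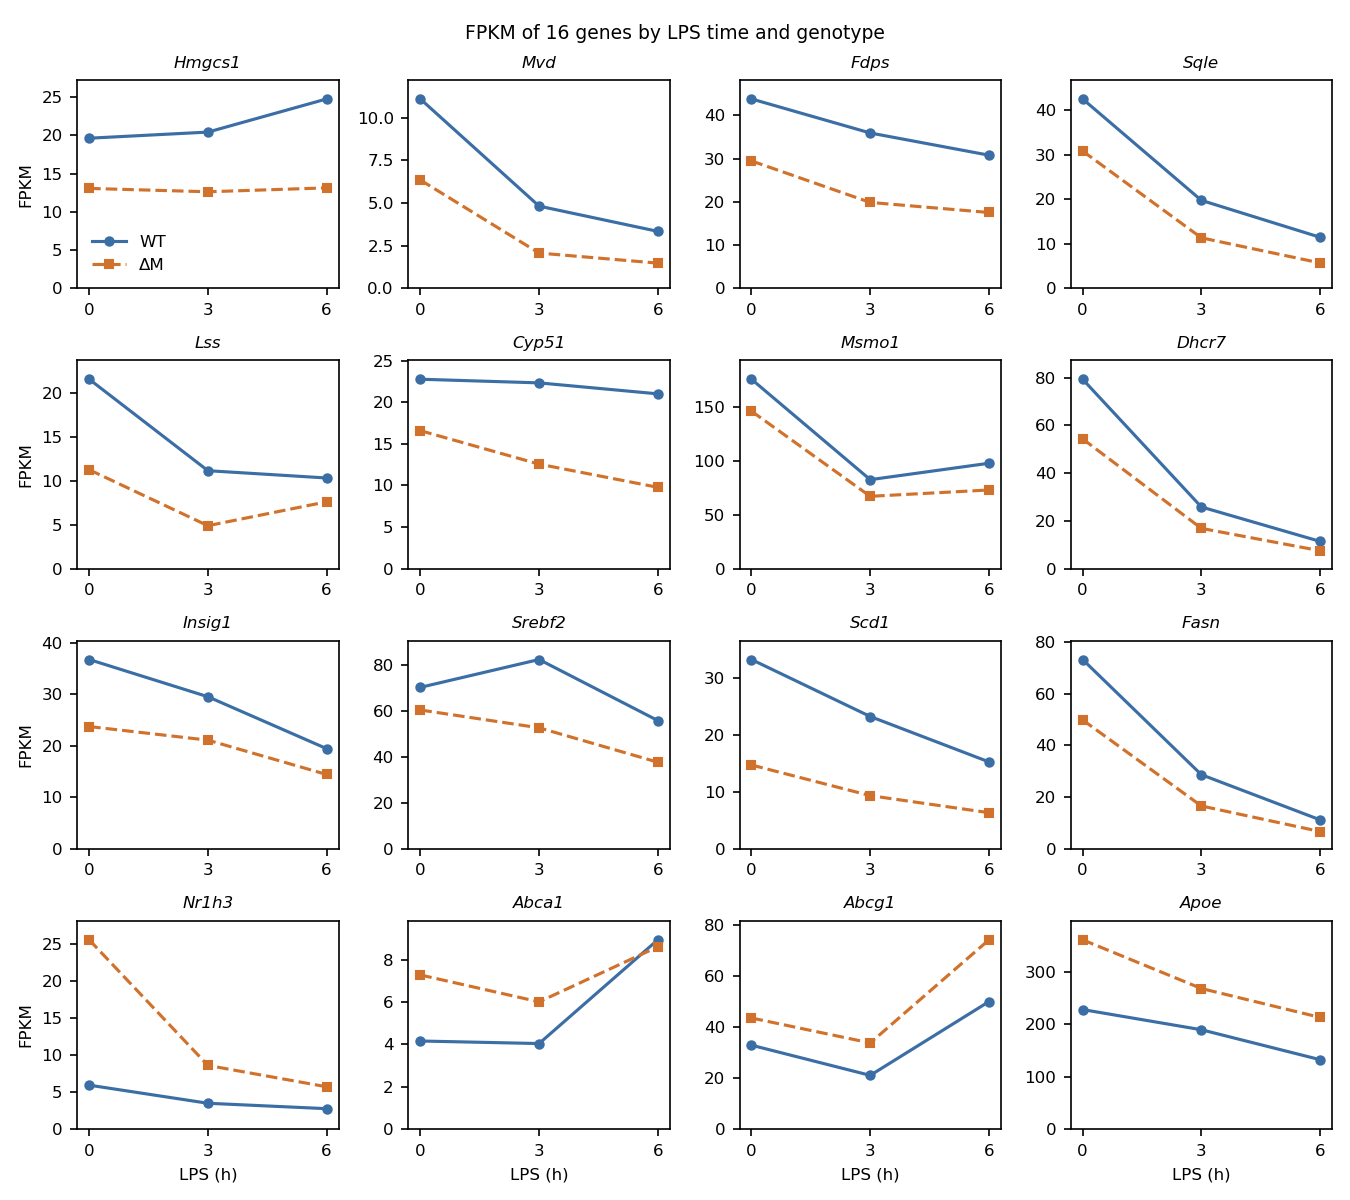
FPKM (vertical axis, from 0 in each panel) of 16 genes by hours of LPS (horizontal axis) in WT (blue circles) and ΔM (orange squares) cells, 1 pooled value per point. The ΔM line is below the WT line in the first 12 panels and above it for Nr1h3, Abcg1 and Apoe, and the lines of Abca1 cross between 3 h and 6 h.

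The 2 LXR genes differed from each other. Nr1h3 stood at 5.92, 3.48 and 2.75 FPKM in WT and 25.51, 8.58 and 5.7 in ΔM cells. It was higher in ΔM at each time, with log2 ratios of 1.94, 1.097 and 0.837, and at 0 h it ranked 17 from the top among 11459 genes. Nr1h2 stood at 74.76, 75.15 and 64.34 FPKM in WT and 78.15, 62.83 and 67.57 in ΔM cells, with ratios of 0.06, -0.25 and 0.07. The FPKM of Nr1h3 was thus 7.92% of that of Nr1h2 in untreated WT cells and 32.6% in untreated ΔM cells, and 4.27% and 8.44% at 6 h. Nr1h2 remained the more abundant of the pair in all 6 groups.

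Of the transporters and carriers of cholesterol efflux, textbook targets of LXR, Apoe, Abcg1 and Abca1 each passed 1.5-fold at 1 or 2 of the 3 times, higher in ΔM cells. Apoe, the apolipoprotein that accepts cholesterol, stood at 227.78, 189.3 and 132.24 FPKM in WT and 360.7, 267.9 and 212.78 in ΔM cells, with ratios of 0.66, 0.50 and 0.68. Abcg1, which exports cholesterol to HDL, stood at 32.87, 21.05 and 49.96 in WT and 43.53, 33.76 and 74.17 in ΔM cells, with ratios of 0.39, 0.66 and 0.56. Both were higher in ΔM at every time, Apoe past 1.5-fold at 0 and 6 h and Abcg1 at 3 h. Abca1, which loads cholesterol onto apolipoprotein A-I, stood at 4.16, 4.04 and 8.94 in WT and 7.28, 6.01 and 8.61 in ΔM cells. Its ratios were 0.68, 0.48 and -0.05, so the genotypes stood nearly level at 6 h. Mylip, an E3 ligase that LXR uses to lower lipoprotein uptake, had ratios of 0.19, 0.19 and 0.00 and never passed the limit.

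Genes that LXR is known to switch on did not all stand on the same side. Scd1, the stearoyl-CoA desaturase, is a target of both LXR and SREBP1, and stood at 33.18, 23.19 and 15.23 FPKM in WT and 14.69, 9.32 and 6.33 in ΔM cells. With ratios of -1.12, -1.23 and -1.15 it was the lowest of the 34 genes at each time and, beside Mvd, the only one at least 1.5-fold lower at all 3. Fasn, fatty acid synthase, stood at 73.18, 28.65 and 11.19 in WT and 49.81, 16.56 and 6.67 in ΔM cells, with ratios of -0.55, -0.76 and -0.67. Acaca, acetyl-CoA carboxylase, stood at 5.29, 3.76 and 3.01 in WT and 3.77, 2.09 and 2.6 in ΔM cells, with ratios of -0.40, -0.62 and -0.16. Scd2 stood at 133.97, 17.89 and 12.79 in WT and 94.88, 12.51 and 10.99 in ΔM cells, with ratios of -0.49, -0.48 and -0.20.

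Neighbouring lists, chosen for their place in the pathway, show how far the pattern reached. Of 13 genes of sterol sensing and trafficking, such as the lysosomal carriers Npc1 and Npc2, 0 passed 1.5-fold in either direction at 0, 3 or 6 h, and their median log2 ratios were -0.11, 0.02 and -0.05. Of 9 genes of the isoprenoid branches, only the farnesyltransferase subunit Fntb passed it, lower at 0 h with a log2 ratio of -0.61. Among 10 genes that supply or elongate fatty acids, the desaturases Fads1 and Fads2 were lower in ΔM. Fads2 stood at 21.75, 15.01 and 8.62 FPKM in WT and 9.72, 6.09 and 3.2 in ΔM cells, and Fads1 at 69.15, 31.53 and 9.74 in WT and 42.66, 15.82 and 5.66 in ΔM cells. Acss2, which makes acetyl-CoA from acetate, passed the limit at 3 h with -0.59, and the acyl-CoA ligase Acsl1 was higher at 3 h with 0.83. Of the uptake receptors, the scavenger receptor Msr1 was higher in ΔM with 0.74 at 0 h and 0.78 at 3 h, Lrp1 was lower with -0.65 and -0.84, and Scarb1 was lower at 3 h with -0.72. Of 9 oxysterol enzymes and LXR partners, 8 had a mean FPKM of at least 1, and only Ch25h passed 1.5-fold, higher at 0 h. The median log2 ratios of this list were -0.14, -0.01 and 0.07. Ch25h, whose product makes an oxysterol, stood at 8.7, 151.42 and 370.2 FPKM in WT and 16.67, 178.71 and 401.37 in ΔM cells.

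The next question was how the genes behaved over time with LPS. The median of all genes moved as well, by -0.39 (log2) in WT cells and -0.34 in ΔM cells from 0 to 3 h and by -0.60 and -0.55 from 0 to 6 h, and from 3 to 6 h by -0.21 in both. The counts of genes lower with LPS are therefore set beside large background shares. In WT cells 12 of the 34 genes were at least 1.5-fold lower at 3 h than at 0 h and 0 were higher, where 34.6% and 10.9% of all genes were. From 3 to 6 h, 7 were lower and 2 higher (20.3% and 9.47% of all genes), and from 0 to 6 h 19 were lower and 2 higher (50.9% and 13.5%). In ΔM cells 17 were lower and 0 higher from 0 to 3 h (31.7% and 11.3% of all genes), 4 lower and 1 higher from 3 to 6 h (19.4% and 8.4%), and 23 lower and 1 higher from 0 to 6 h (47.8% and 13.1%). In WT cells the shares of the 34 genes that were lower lie near those of all genes. From 0 to 3 h and from 0 to 6 h, the enzymes had medians of -0.26 and -0.51 in WT cells and of -0.60 and -0.77 in ΔM cells, and the LXR and efflux genes of -0.44 and -0.50 and of -0.39 and -0.48. Relative to the median of all genes, the enzymes had medians of 0.12 at 3 h and 0.09 at 6 h in WT cells and of -0.26 and -0.22 in ΔM cells, all against 0 h. The LPS and genotype comparisons share groups, so this gap between genotypes is the gap already described and is no further observation.

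**Figure D4:**
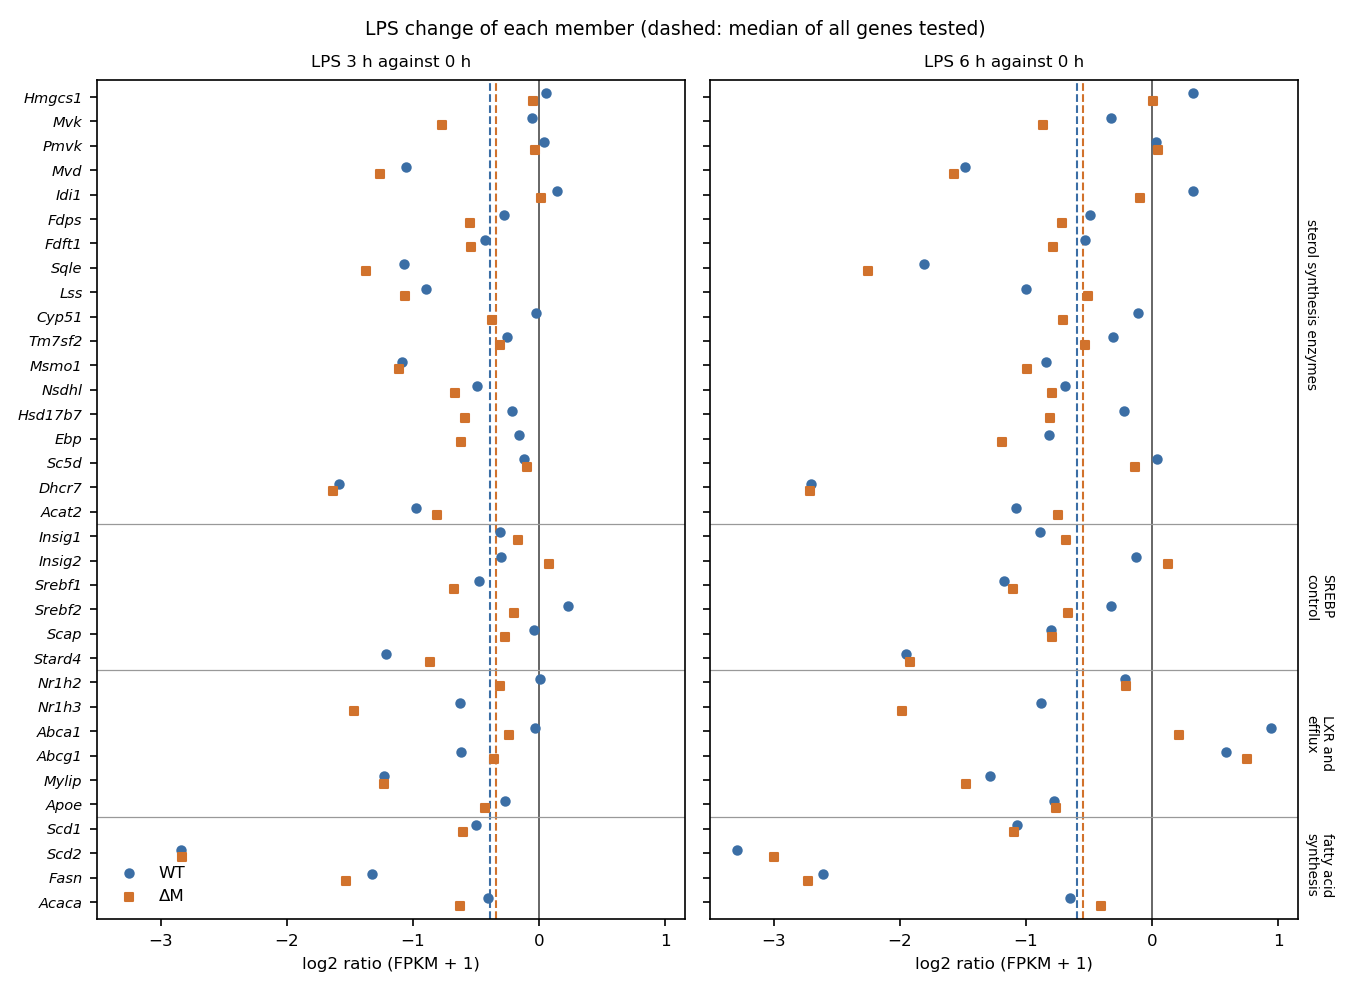
Log2 ratio of FPKM plus 1 at 3 h (left) and 6 h (right) of LPS against 0 h (horizontal axis) for each of the 34 genes in WT (blue circles) and ΔM (orange squares) cells. Dashed lines are the medians of all genes, -0.39 and -0.34 at 3 h and -0.60 and -0.55 at 6 h, and Scd2, Fasn and Dhcr7 lie far to the left of them in both genotypes.

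Within this general course single genes stood apart, some of them in both genotypes. Scd2 had the lowest log2 ratios of the 34 genes, -3.29 in WT and -3.00 in ΔM cells from 0 to 6 h, or -2.69 and -2.45 relative to all genes. Dhcr7 followed with -2.70 and -2.71, and Fasn with -2.61 and -2.73. Sqle, Stard4, Mvd and Mylip were also lower by over 1.5-fold relative to all genes in both genotypes. Abca1 and Abcg1 went the other way between 3 and 6 h. Relative to all genes, Abca1 had ratios of 1.19 in WT and 0.66 in ΔM cells and Abcg1 of 1.42 and 1.32. In WT cells Hmgcs1, Idi1, Sc5d and Pmvk were higher at 6 h than at 0 h relative to all genes, by 0.92, 0.92, 0.63 and 0.63, and without that reference by 0.32, 0.32, 0.03 and 0.03. Nr1h3 was lower with LPS in both genotypes, with ratios from 0 to 6 h of -0.88 in WT and -1.98 in ΔM cells. The distance between the genotypes was accordingly smaller at 6 h than at 0 h. Relative to all genes its ratios were -0.29 in WT and -1.44 in ΔM cells, so it passed 1.5-fold in ΔM cells only.

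Decay after actinomycin D was examined because TTP acts on mRNA stability. The tables write a half-life as a number up to 180 min and otherwise as stable. A half-life was given for 5 of the 34 genes in WT and 4 in ΔM cells at 3 h, against 21.1% and 22.6% of all genes, and for 4 and 2 at 6 h, against 22.5% and 17% of all genes. Of the 18 enzymes, this held for 1 in WT cells at 3 h (Sqle, 171.5 min), for 2 in WT cells at 6 h (Hmgcs1, 131.5 min, and Idi1, 142.4 min) and for 0 in ΔM cells at either time. The enzymes had median log2 changes over 90 min of 0.14 in WT and 0.12 in ΔM cells at 3 h and 0.04 and 0.08 at 6 h. All genes had medians of -0.04, -0.13, -0.08 and -0.04 in the same order. FPKM is scaled within each library, so a slope above 0 marks loss slower than that of the mRNA pool as a whole.

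Mylip was the least stable of the 34 genes, with half-lives of 52.4 min in WT and 48.7 min in ΔM cells at 3 h and of 52.6 and 59.1 min at 6 h. No other member had a number in all 4 groups, and the values of both genotypes were close. Fasn had half-lives of 63.3 min in WT and 139.8 min in ΔM cells at 3 h, and of 117.9 min in WT cells at 6 h, where it was stable in ΔM cells. Its loss was thus slower in ΔM at both times. Acaca had a half-life of 74.0 min in WT cells and was stable in ΔM cells at 3 h, and at 6 h it was stable in WT cells with 128.1 min in ΔM cells. Srebf1 had 161.1 min in WT cells at 3 h, Stard4 161.6 min and Abca1 152.2 min in ΔM cells at 3 h, and all 3 were stable in the other groups. Apoe was stable throughout, with slopes above 0 in all 4 groups.

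TTP binds the AU-rich heptamer UAUUUAU, written TATTTAT as DNA, in 3′ untranslated regions. In the longest annotated 3′ untranslated region of each gene (GENCODE vM1, used for letters only and without coordinates), 7 of 33 members held it, against 27.6% of 9029 genes with an FPKM of at least 1 in WT cells at 6 h. It stood in 1 of 17 enzymes (Hsd17b7, with 5 copies), 3 of 6 SREBP control genes (Insig1, Insig2 and Srebf1), 1 of 6 LXR and efflux genes (Mylip) and 2 of 4 fatty acid synthesis genes (Fasn and Acaca). The median length searched was 900, 1506, 930.5 and 2718 bases for these classes in the same order, against 1160 for all genes. The counts were not adjusted for length. Of the 9 members with a half-life given as a number in any group, 8 had a 3′ untranslated region to search, and 4 of these held the heptamer. Its share among all genes with such a half-life was not computed. The paper mapped TTP binding directly by crosslinking, and that map was not used here. The sites of these 4 members are printed below 5′ to 3′ on the transcript strand with the heptamer in capitals. The printed sites are matches of letters and do not show binding. They start at base 1394 of the 3′ untranslated region of Mylip on chromosome 13, and at bases 319 of Fasn, 199 of Acaca and 317 of Srebf1, all 3 on chromosome 11. No heptamer stood in Nr1h3, Abca1, Abcg1 or Apoe.
Mylip: ttccaagaggTATTTATtttttcactt
Fasn: taaattctcaTATTTATtgcattgctg
Acaca: cccgattcagTATTTATtagcccagct
Srebf1: aaaatgaaatTATTTATaacttcagtt

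The slope of decay was then compared between genotypes, as the difference ΔM minus WT in log2 units over 90 min, where a value above 0 is slower loss in ΔM. At 3 h, 7 of the 34 genes were slower in ΔM by at least 0.5 and 2 faster, against 9.35% and 16% of all genes. The slower ones were Acaca with 1.22, Mvd with 0.78, Fasn with 0.78, Srebf1 with 0.77, Lss with 0.77, Nr1h2 with 0.70 and Mvk with 0.52, and the faster ones Insig2 with -0.84 and Stard4 with -0.51. At 6 h, 1 was slower, Mvd with 0.55, and 1 faster, Nr1h3 with -0.66, against 4.99% and 2.27% of all genes. Mvd was the only member on the same side of the limit at both times. The median difference of the enzymes was 0.01 at 3 h and 0.11 at 6 h, that of the LXR and efflux genes 0.04 and 0.00, and that of all genes -0.04 and 0.05. The tables used hold no error of a slope. Of the genes slower in ΔM at 3 h, Mvd, Fasn, Srebf1, Nr1h2 and Mvk had GC contents of 59.3%, 57.4%, 58.3%, 60.8% and 59.4%. Acaca and Lss had 49.1% and 48.2%, and the faster Insig2 and Stard4 49.4% and 50.3%, against 50.8% for all genes. Whether the slopes at 3 h follow GC content, as the genotype ratio did, was not tested.

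The libraries at 0 min of actinomycin D give both the level at 3 and 6 h and the first point of each decay fit. Levels and slopes are therefore not independent, and the part of decay in the genotype ratios was not tested. Nr1h3 had a slope difference of 0.15 at 3 h and was lost faster in ΔM at 6 h. Its log2 change over 90 min at 6 h was 0.47 in WT and -0.18 in ΔM cells, at a low FPKM of 2.75 and 5.7. The slope differences of Apoe were -0.07 and -0.08, and those of Abcg1 0.28 and 0.20. The decay values cover 3 and 6 h only, and the ratio of Nr1h3 was highest at 0 h.

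**Figure D5:**
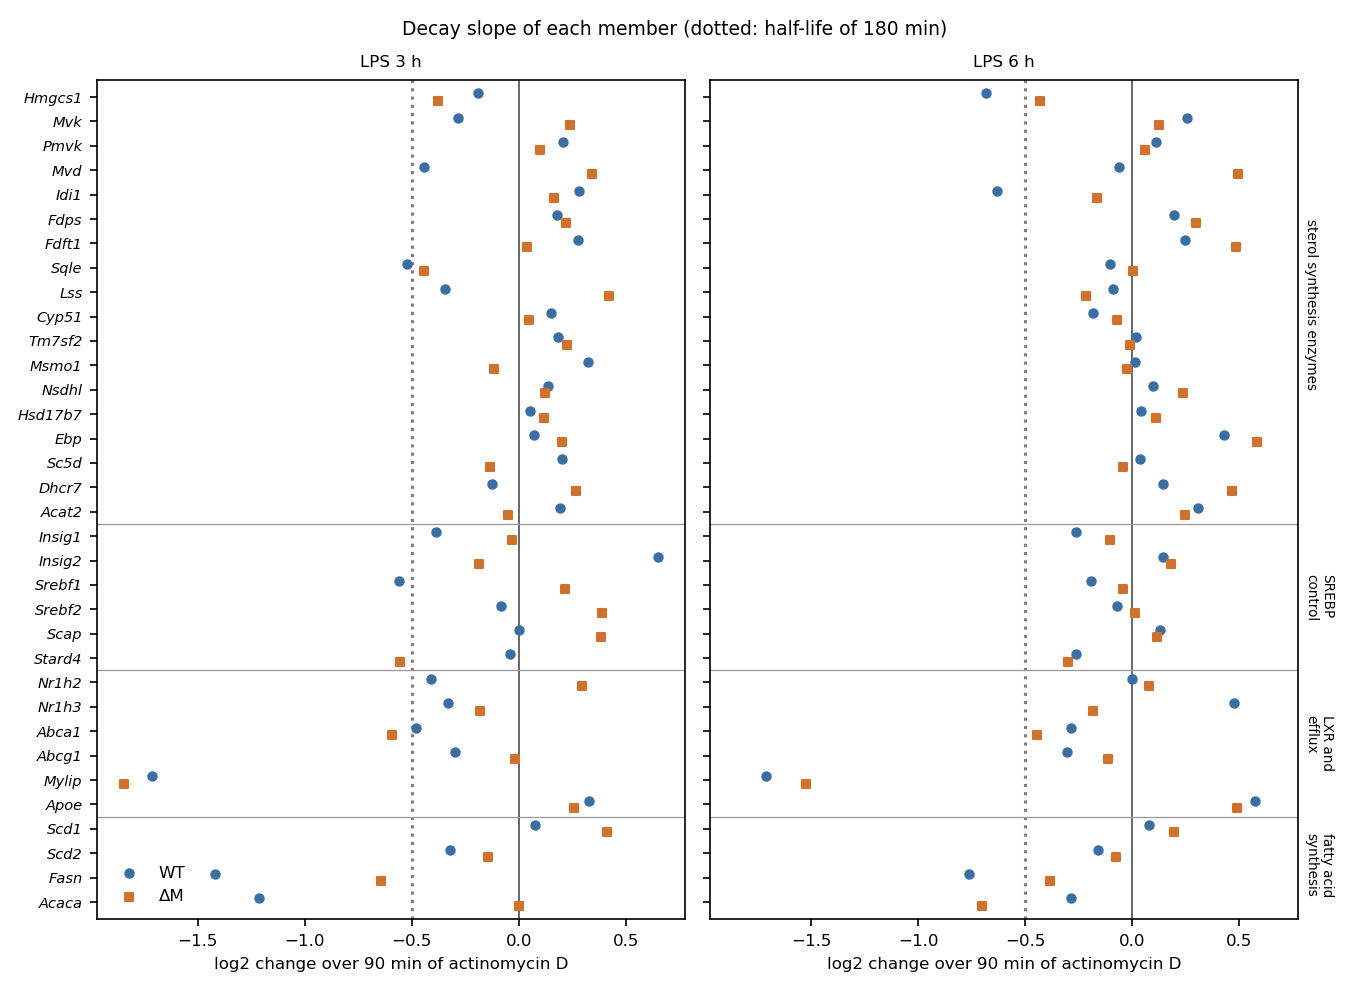
Log2 change of FPKM over 90 min of actinomycin D (horizontal axis) for each of the 34 genes in WT (blue circles) and ΔM (orange squares) cells at 3 h (left) and 6 h (right) of LPS. The dotted line is the half-life of 180 min beyond which the tables write stable, and Mylip lies far to its left in all 4 groups while most enzymes lie near or right of 0.

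Between LPS times, WT cells lost the mRNA of 4 genes more slowly at 6 h than at 3 h and of 2 faster, against 7.12% and 10.1% of all genes. These were Acaca with 0.93, Nr1h3 with 0.80, Fasn with 0.66 and Mvk with 0.54, and Idi1 with -0.91 and Insig2 with -0.51. In ΔM cells 0 were slower and 2 faster, Acaca with -0.70 and Lss with -0.64, against 9.21% and 3.44% of all genes. The synthesis enzymes as a class thus changed their slope from 3 to 6 h about as much as all genes did. The medians of this change were -0.02 in WT and 0.09 in ΔM cells, against -0.04 and 0.07 for all genes.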

How the data were processed

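Libraries came from the SENSE mRNA-Seq kit (Lexogen). Per the labels and the methods of the paper, the authors aligned reads to mm10 with GSNAP, and gene levels came from Mix² and fold changes from DESeq2. The deposited FPKM values are pooled by the authors, 1 per group. The deposited half-lives, in min, and decay rates, in log2 units of FPKM per min, come from the authors' linear fit over 3 time points of actinomycin D in 3 replicates, where a half-life from 180 min is written as stable. FPKM is scaled within a library, so levels and slopes are relative to all other mRNAs, and the division of reads between near-identical genes such as Scd1 and Scd2 rests on that quantification. Other deposited columns hold the authors' own log2 fold changes of ΔM over WT with false discovery rates, which were not used. Depth per library is unknown, and intervals from counts cannot be given.

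Calculations used Python 3.11.15 (pandas 2.3.3, numpy 2.4.6, scipy 1.17.1) and figures matplotlib 3.10.9. Level ratios are log2 of FPKM plus a pseudocount of 1, which understates the change of low genes, where the mean FPKM of both groups was at least 1 (10307 to 11459 genes), called at 1.5-fold. Slope differences were multiplied by 90 min and called at 0.5 log2 units (10219 to 10653 genes). The code that makes the calls was tested on simulated data. No statistical test was made. Named genes were Zfp36, all 34 members and at most 3 genes of each other list past 1.5-fold between genotypes, with the macrophage markers as a list. Markers of other cell types, Acss2, Npc1 and Npc2 were added after their values were seen. Members, lists and limits were chosen with earlier results of these data known. Alternatives changed the pseudocount, filter, centring and limits, and centring within 20 bins of GC content was added after seeing the data. Positions come from RefSeq on GRCm38.p6, and GC content and 3′ untranslated regions from GENCODE vM1 by gene identifier. Some genes of the marker lists were not analysed here.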

Additional observations from a re-analysis of the deposited data

Results flagged for a closer look

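Acaca was singled out because its decay moved in opposite directions in the 2 genotypes. Between 3 and 6 h of LPS its slope differed by 0.93 log2 units over 90 min in WT cells, towards slower loss, and by -0.70 in ΔM cells, towards faster loss. The difference between the genotypes was not tested, since the tables hold 1 slope per group without an error, and the FPKM of Acaca was 2.09 to 3.76 in the 4 groups concerned.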

How the results depend on the processing

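Of 114 counts of members recomputed under an alternative, 74 stayed within 1.5 times the main count, and 107 recomputed class medians shifted by less than 0.1, against 29 that shifted by more. The share of all genes was not computed at a limit of 2-fold, a pseudocount of 0.1, changed half-life or slope limits, or centred slopes. Member counts under these alternatives therefore cannot be set against all genes. At a limit of 2-fold, 1 member was higher and 1 lower in ΔM at 0 h, 1 and 2 at 3 h, and 0 and 2 at 6 h. In WT cells 1 was then higher and 2 lower from 3 to 6 h and 0 higher and 10 lower from 0 to 6 h, and in ΔM cells 9 were lower from 0 to 3 h and 0 higher and 11 lower from 0 to 6 h. Centring within bins of GC content left 9 members lower in ΔM at 3 h (3.34% of all genes) and medians at 3 h of -0.26 for SREBP control and -0.59 for fatty acid synthesis. A pseudocount of 0.1 gave 2 members higher in ΔM cells from 3 to 6 h, and medians of fatty acid synthesis of -0.80 for ΔM against WT at 3 h and of -1.20 and -2.04 in ΔM cells at 3 and 6 h against 0 h.

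Centring on the median of all genes changed the LPS comparisons most. In WT cells 1 member was then higher from 0 to 3 h (17.6% of all genes), 2 lower from 3 to 6 h (11.3%), and 6 higher and 7 lower from 0 to 6 h (24.6% and 21.2%). In ΔM cells 9 were lower from 0 to 3 h (13.96%), 3 higher from 3 to 6 h (13.6%), and 4 higher and 9 lower from 0 to 6 h (23.1% and 19.7%). The centred medians of the enzymes were 0.122, 0.106 and 0.0865 in WT cells (3 against 0, 6 against 3 and 6 against 0 h) and -0.258, 0.0610 and -0.220 in ΔM cells. In the same order those of SREBP control were 0.0815, -0.433 and -0.243 in WT and 0.11, -0.29 and -0.19 in ΔM cells, those of LXR and efflux -0.0568, 0.0675 and 0.102 and -0.0493, 0.136 and 0.0636, and those of fatty acid synthesis -0.53, -0.31 and -1.24 and -0.74, -0.12 and -1.37. The shift is the median of all genes by construction. It changed the sign of the following medians, given before centring. In WT cells these were -0.26, -0.10 and -0.51 for the enzymes, -0.30 for SREBP control at 3 h, and -0.14 and -0.50 for LXR and efflux at 6 h against 3 and 0 h. In ΔM cells these were -0.15 for the enzymes at 6 against 3 h, -0.23 for SREBP control at 3 h, and -0.0725 and -0.48 for LXR and efflux at 6 h against 3 and 0 h. Among slopes between LPS times, the enzymes in WT cells went from -0.0212 to 0.0227 and LXR and efflux in ΔM cells from 0.0722 to -0.0149.

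With half-lives under 90 min, 3 members were unstable in WT and 1 in ΔM cells at 3 h, and 1 and 1 at 6 h. At a slope limit of 1 log2 unit, 1 was slower and 0 faster in ΔM at 3 h, 0 and 0 at 6 h, 0 and 0 between LPS times in WT cells, and 0 faster in ΔM cells. With half-lives 2-fold apart, or stable in only 1 group, 4 were slower in ΔM at 3 h and 3 at 6 h, and in ΔM cells 3 were slower and 1 faster at 6 h than at 3 h. With centred slopes 1 was faster in ΔM at 3 h and 1 faster in WT cells at 6 h than at 3 h. No paired analysis was possible because the tables hold 1 pooled value per group. The spread between animals cannot be given from the values used, so whether any single gene's difference exceeds it was not assessed here. The authors' own false discovery rates were not used. Genes of low FPKM such as Idi1 and Mvd are the least certain.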
